A study of Rattus norvegicus with 6 samples.

Results

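The transcriptome of untreated H9C2 cells, an established line of myoblasts that came from the heart of a rat embryo, was described from the libraries titled Ctrl 1 and Ctrl 2. They were chosen by title alone and are 2 of the 6 RNA sequencing libraries of the study. The cells were grown in DMEM with 1 g/L glucose, carried the label control for genotype, and were labelled untreated. The other groups received 33 mM glucose during 8 h (HG) or an siRNA against Fgfr1 followed by that glucose dose (siFGFR1+HG), with 2 libraries each, and they are not compared here. The labels give no passage number and do not say whether the 2 libraries came from separate cultures or received a control siRNA, so the spread between them may be technical. All levels are those of a single established line. Levels are descriptions with no test, because a single group has no contrast.

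H9C2 cells divide as mononucleated myoblasts and can fuse into multinucleated myotubes when serum is withdrawn. They are widely used as a stand-in for heart muscle cells, although they do not beat. In skeletal muscle, Pax3 and Pax7 mark progenitors, the basic helix-loop-helix factors Myf5 and Myod1 commit cells to the muscle lineage, and Myog and Myf6 act during differentiation, after which sarcomere genes are switched on. In the heart, a separate set of factors that includes Gata4, Nkx2-5, Tbx5 and Hand2 drives the muscle programme.

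The untreated libraries held 54149827 and 75021470 counts. A row of the deposited table, 1 row per annotated gene, was called expressed when it reached 1 FPKM (fragments per kilobase of gene, scaled to 1000000 fragments) in both libraries. FPKM corrects for gene length, so levels of different genes are compared on that scale only, and paired values below are Ctrl 1 first and Ctrl 2 second. Of 32623 rows, 11638 (35.7%) were expressed, and of 22045 protein-coding rows 10908 (49.5%) were. Another 15381 rows (47.1%) had 0 counts in both libraries, among them 7326 coding rows (33.2%). The expressed rows had a median level of 12.2 FPKM and quartiles at 5.26 and 29.8 FPKM, 6381 rows reached 10 FPKM, 777 reached 100 FPKM and 62 reached 1000 FPKM. A row at 0 is read against a floor of 12 counts per library, which is 3 fragments at an assumed 4 counts each and allows a level of up to 0.222 CPM (counts scaled to a library of 1000000) in Ctrl 1 and 0.160 CPM in Ctrl 2. That floor covers counting error only and equals 0.0919 and 0.0670 FPKM for a gene of median length.

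Both libraries gave nearly the same level for most genes. The median absolute log2 ratio between them was 0.08 over the expressed rows, and 97.2% of these rows lay within 1.5-fold. Exceptions were few. Of 9065 rows that reached 5 FPKM in the higher library, 39 (0.43%) differed at least 10-fold, and they are described at the end.

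**Figure D1:**
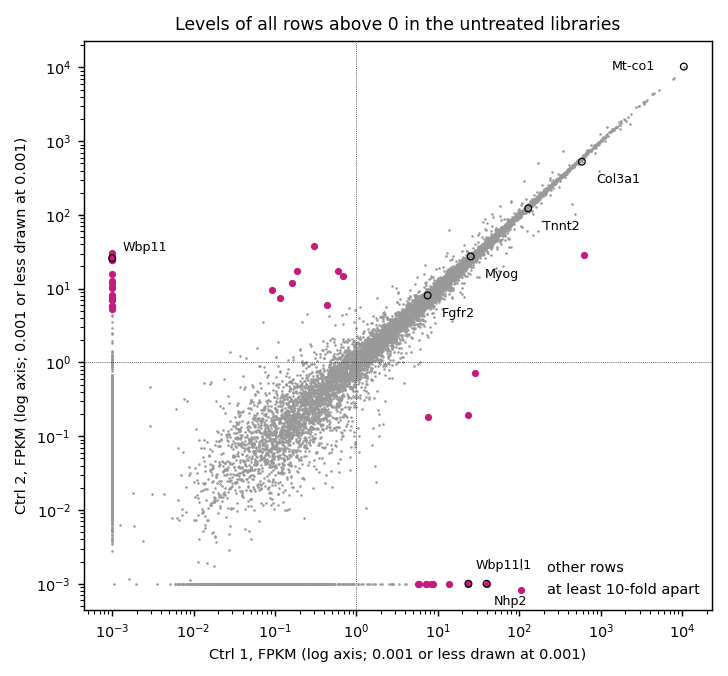
FPKM of every row above 0 in Ctrl 1 (horizontal) and Ctrl 2 (vertical), both on log axes, with the 39 rows that differed at least 10-fold in pink and dotted lines at 1 FPKM. The cloud follows the diagonal from under 1 FPKM up to Mt-co1 at 10470 and 10258 FPKM, and most of the 39 discordant rows lie on the lines drawn for 0.

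The most abundant RNAs coded for the respiratory chain, the cytoskeleton, protein synthesis and a collagen-rich matrix. The 10 highest rows held 10.5% and 10.1% of all FPKM, the 100 highest 32.9% and 32.6%, and the 1000 highest 65.5% and 65.4%. Of the 30 highest rows with a gene symbol of their own, 11 were genes of the mitochondrial genome and 6 were ribosomal protein genes. Mt-co1, a cytochrome oxidase subunit, led at 10470.0 and 10258 FPKM, followed by Mt-co2 at 7944 and 7245 FPKM and Mt-co3 at 7712 and 6921 FPKM. The first nuclear genes with a symbol in this order were Actb, cytoplasmic actin, at 4541 and 4529 FPKM and Eef1a1, which delivers tRNAs to the ribosome, at 4304 and 4415 FPKM. Lgals1, a galactose-binding lectin, reached 3363 and 3361 FPKM. The type I collagen chain Col1a1 stood beside it at 3432 and 3231 FPKM, and the smooth muscle actin Acta2 followed at 2743 and 2897 FPKM. Further down the same 30 were Vim, the intermediate filament of mesenchymal cells, at 1759 and 1872 FPKM, the matrix glycoproteins Sparc at 1696 and 1675 FPKM and Thbs1 at 1704 and 1653 FPKM, and the collagen chaperone Serpinh1 at 1508 and 1530.1 FPKM. Myog, Tnnt2, Col3a1 and Fgfr2 were not among these 30.

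All 4 genes given as markers of these cells were expressed. Myog, the differentiation factor of skeletal muscle, had 2055 and 3081 counts, or 25.3 and 27.4 FPKM, and ranked 3247 among all rows by mean level. Tnnt2, the troponin T of heart and embryonic skeletal muscle, had 129 and 123 FPKM (mean 126 ± 4.21, SD, n = 2) and ranked 619. Col3a1, a fibrillar collagen of connective tissue, had 586 and 527 FPKM (mean 557 ± 42.3, SD, n = 2) and ranked 133. Fgfr2, a receptor tyrosine kinase for fibroblast growth factors, had 7.48 and 8.11 FPKM (mean 7.79 ± 0.445, SD, n = 2) and ranked 7422, below the median of the expressed rows. The table places Myog at 51126459 to 51129048 and Tnnt2 at 52662996 to 52680990 on the plus strand of chromosome 13, Col3a1 at 52023295 to 52059217 on the plus strand of chromosome 9, and Fgfr2 at 200590953 to 200696928 on the minus strand of chromosome 1. The build behind these positions is unsure, because the submitters' processing notes name a human genome while every identifier is a rat one.

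Promoters of 2 of these markers and of 2 genes at 0 are shown for their content of CG dinucleotides, the sites at which mammalian DNA is methylated. They held from 2 to 48 of them, and the Myog and Nppb promoters held the same number. Each window runs from 250 bases before to 50 bases after the RefSeq start, in build GRCr8, 5′ to 3′ on the gene's strand, with every CG in capitals. The Fgfr2 window, chr1:194280865-194281164 on the minus strand, held 48 CG dinucleotides. The Myog window, chr13:48297226-48297525 on the plus strand, held 9. The window of the myogenic factor Myf5, chr7:44692589-44692888 on the minus strand, held 2, and that of the natriuretic peptide gene Nppb, chr5:163699758-163700057 on the plus strand, held 9.
Fgfr2: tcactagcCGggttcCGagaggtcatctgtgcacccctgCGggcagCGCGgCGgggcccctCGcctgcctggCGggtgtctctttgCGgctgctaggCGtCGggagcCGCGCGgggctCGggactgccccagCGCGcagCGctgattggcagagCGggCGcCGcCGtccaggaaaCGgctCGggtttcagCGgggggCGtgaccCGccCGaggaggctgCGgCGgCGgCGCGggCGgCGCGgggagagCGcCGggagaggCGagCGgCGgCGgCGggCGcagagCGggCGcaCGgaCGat
Myog: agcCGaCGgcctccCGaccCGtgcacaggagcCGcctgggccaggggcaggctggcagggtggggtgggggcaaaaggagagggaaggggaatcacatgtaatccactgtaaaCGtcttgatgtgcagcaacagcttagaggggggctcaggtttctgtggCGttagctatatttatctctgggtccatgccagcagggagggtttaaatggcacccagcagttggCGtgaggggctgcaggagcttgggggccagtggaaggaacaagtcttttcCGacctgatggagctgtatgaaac
Myf5: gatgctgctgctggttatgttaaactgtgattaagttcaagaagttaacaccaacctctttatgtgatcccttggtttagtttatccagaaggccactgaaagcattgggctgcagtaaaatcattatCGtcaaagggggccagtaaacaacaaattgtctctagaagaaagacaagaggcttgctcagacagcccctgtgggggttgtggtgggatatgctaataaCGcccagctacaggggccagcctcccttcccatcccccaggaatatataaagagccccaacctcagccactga
Nppb: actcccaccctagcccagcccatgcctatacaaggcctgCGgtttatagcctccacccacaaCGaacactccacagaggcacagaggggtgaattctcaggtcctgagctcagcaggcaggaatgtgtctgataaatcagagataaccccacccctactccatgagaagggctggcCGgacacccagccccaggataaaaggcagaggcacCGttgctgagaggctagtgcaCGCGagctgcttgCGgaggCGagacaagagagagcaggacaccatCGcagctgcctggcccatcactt
The motif TATAAA, searched on both strands, was present in the Myf5 and Nppb windows and not found in the Fgfr2 and Myog windows. The letters CANNTG, the core recognised by basic helix-loop-helix factors and the same on both strands, occurred 2 times in the Myog window, 1 time each in the Fgfr2 and Nppb windows, and not in the Myf5 window. These matches describe the letters only. Shares over all promoters by level are given further on.

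The line expressed Myod1 and Myog of the skeletal myogenic programme, while Myf5, Pax3 and Pax7 were not detectable at this depth. Of 20 rows for myogenic and satellite cell factors, 15 were expressed (75% against 35.7% of all rows and 49.5% of coding rows), and 3 had 0 counts. Among the 4 myogenic helix-loop-helix factors Myod1 was highest at 64.0 and 66.3 FPKM and Myog second at 25.3 and 27.4 FPKM, an order that held in both libraries. Myf6, the late factor, was at 0.111 and 0 FPKM and Myf5 was at 0 in both. Pax3 and Pax7, which mark embryonic progenitors and satellite cells, were also at 0. The adhesion molecule Cdh15 (M-cadherin) led the list at 138 and 139 FPKM, ahead of Ncam1 at 80.3 and 84.7 FPKM and the laminin receptor chain Itga7 at 43.3 and 42.6 FPKM. Musk, the kinase that organises the neuromuscular junction, had 23.5 and 24.8 FPKM. Mymk, the membrane protein needed for myoblast fusion, was much lower at 3.65 and 3.35 FPKM. Of the MEF2 factors, partners of the myogenic factors, the listed members were expressed. Mef2d had 15.1 and 15.1 FPKM, Mef2a 13.05 and 13.4 FPKM and Mef2c 4.26 and 4.22 FPKM, an order that held in both libraries. The transcriptional coactivators Eya4 and Eya1 had 24.2 and 22.4 FPKM and 17.6 and 18.7 FPKM. Des, the muscle intermediate filament desmin, reached only 7.80 and 7.40 FPKM, far below vimentin. Chrna1, a subunit of the muscle acetylcholine receptor, was just under the threshold at 0.824 and 0.808 FPKM.

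Sarcomere genes ranged widely, from the troponin C gene Tnnc1 at the top down to ventricular light chain genes at 0. Of 37 rows 18 were expressed (48.6%, near the 49.5% of coding rows), 17 were lower but above 0 in at least 1 library, and 2 had 0 counts. Ttn, Tcap, Myh1 and Myh2 had no matching row and were not analysed here. On the thin filament, Tnnc1, the troponin C of slow and cardiac muscle, had 411 and 421 FPKM and Tnnc2, its fast counterpart, 52.9 and 43.9 FPKM. Of the troponin T genes Tnnt2 made up 85.7% and 88.0% of the family's FPKM, with the fast Tnnt3 at 14.002 and 10.01 FPKM and the slow Tnnt1 at 7.50 and 6.75 FPKM. Troponin I was scarce in all forms. The slow Tnni1 had 3.65 and 2.38 FPKM, the fast Tnni2 1.96 and 1.795 FPKM and the cardiac Tnni3 0 and 0.302 FPKM. Tropomyosins were abundant, with Tpm2 at 382 and 391 FPKM, Tpm1 at 199 and 201 FPKM and Tpm3 at 156 and 156 FPKM, although non-muscle cells use them too. Cryab, a small heat shock protein that guards the Z-disc, had 173 and 179 FPKM.

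Actins were dominated by the smooth muscle form. Acta2 took 95.8% and 96.1% of the FPKM of the 4 muscle actins, the enteric Actg2 was at 93.9 and 98.5 FPKM, the skeletal Acta1 at 26.7 and 19.5 FPKM and the cardiac Actc1 at 0.539 and 0.715 FPKM. These coding sequences are nearly identical, so how reads were divided among them is uncertain. Myosin heavy chains were low. The fast adult Myh4 had 10.1 and 11.2 FPKM and the embryonic Myh3 9.97 and 8.30 FPKM, and the perinatal Myh8 was at 0.391 and 0.236 FPKM, with the same caution for neighbouring copies. The cardiac chains Myh7 and Myh6 were at 0.0536 and 0.0723 FPKM and at 0 and 0.0635 FPKM. Among light chains the fast skeletal Mylpf led at 66.9 and 52.2 FPKM and the embryonic and atrial Myl4 followed at 18.9 and 14.9 FPKM. The ventricular Myl2 and Myl3 had 0 counts. Of other sarcomere genes, Myom1 had 3.81 and 3.66 FPKM and Ldb3 2.21 and 1.795 FPKM. Neb, Actn2, Actn3, Mybpc1, Mybpc2, Mybpc3, Myoz1, Myoz2, Myom2 and Lmod2 were all below 1 FPKM in both libraries.

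Cardiac transcription factors were a mixture of presence and absence. Of 20 rows for cardiac factors and natriuretic peptides and their receptors, 8 were expressed (40%, between the shares of all rows and of coding rows) and 11 had 0 counts. Hand2, a factor of the developing right ventricle and limb, was highest at 22.8 and 22.02 FPKM. Tbx18, a factor of the epicardium and venous pole, had 17.1 and 16.3 FPKM. Myocd, a coactivator in smooth and cardiac muscle, had 8.92 and 8.54 FPKM, and Nkx2-5, a core cardiac homeobox factor, 5.24 and 4.54 FPKM. Gata4 and Gata6 lay at 3.83 and 3.99 FPKM and at 3.21 and 3.89 FPKM. Gata4 was above Gata6 within each library, but the values overlapped across the libraries, so the pair was not separated. Hand1, Tbx5, Tbx20, Isl1, Irx4, Gata5 and Hopx had 0 counts in both libraries. The natriuretic peptide genes Nppa, Nppb and Nppc and the processing protease gene Corin were at 0 as well. Of the receptor genes for these peptides, 2 of 3 were expressed, the clearance receptor Npr3 at 16.1 and 15.3 FPKM and Npr2 at 12.8 and 12.3 FPKM. Npr1, the receptor for the atrial peptide, was at 0 and 0.0227 FPKM.

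The calsequestrin genes and the calcium pump genes Atp2a2 and Atp2a3 were expressed, while the release channels were below 1 FPKM. Of 27 rows for calcium handling and ion channels 12 were expressed (44.4%, between the 35.7% of all rows and the 49.5% of coding rows) and 5 had 0 counts. Casq2, the cardiac calcium-binding protein of the sarcoplasmic reticulum, led at 169 and 168 FPKM, far above its skeletal relative Casq1 at 7.86 and 7.70 FPKM. The calcium pump Atp2a2 had 80.5 and 81.5 FPKM and its relative Atp2a3 3.30 and 2.92 FPKM. Ryr1, Ryr3 and Ryr2, the release channels, were at 0.143 and 0.135 FPKM, at 0.0137 and 0.00837 FPKM and at 0. Trdn (triadin), Jph1 and Kcnj2 were at 0 too. Jph2, which couples the reticulum to the cell membrane, had 24.4 and 24.7 FPKM. Pln, the inhibitor of the calcium pump, was at 0.963 and 0.503 FPKM. Both cardiac connexins were abundant, Gja5 at 85.0 and 84.3 FPKM and Gja1 at 74.0 and 75.003 FPKM, and Gja5 lay above Gja1 in both libraries. Scn4a, the sodium channel of adult skeletal muscle, was at 0.0625 and 0.0623 FPKM. The sodium-calcium exchanger Slc8a1 had 19.2 and 19.4 FPKM and the voltage-gated channel gene Cacna1c 4.85 and 4.34 FPKM. The store-operated entry pair Orai1 and Stim1 had 22.7 and 22.4 FPKM and 17.2 and 12.1 FPKM.

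**Figure D2:**
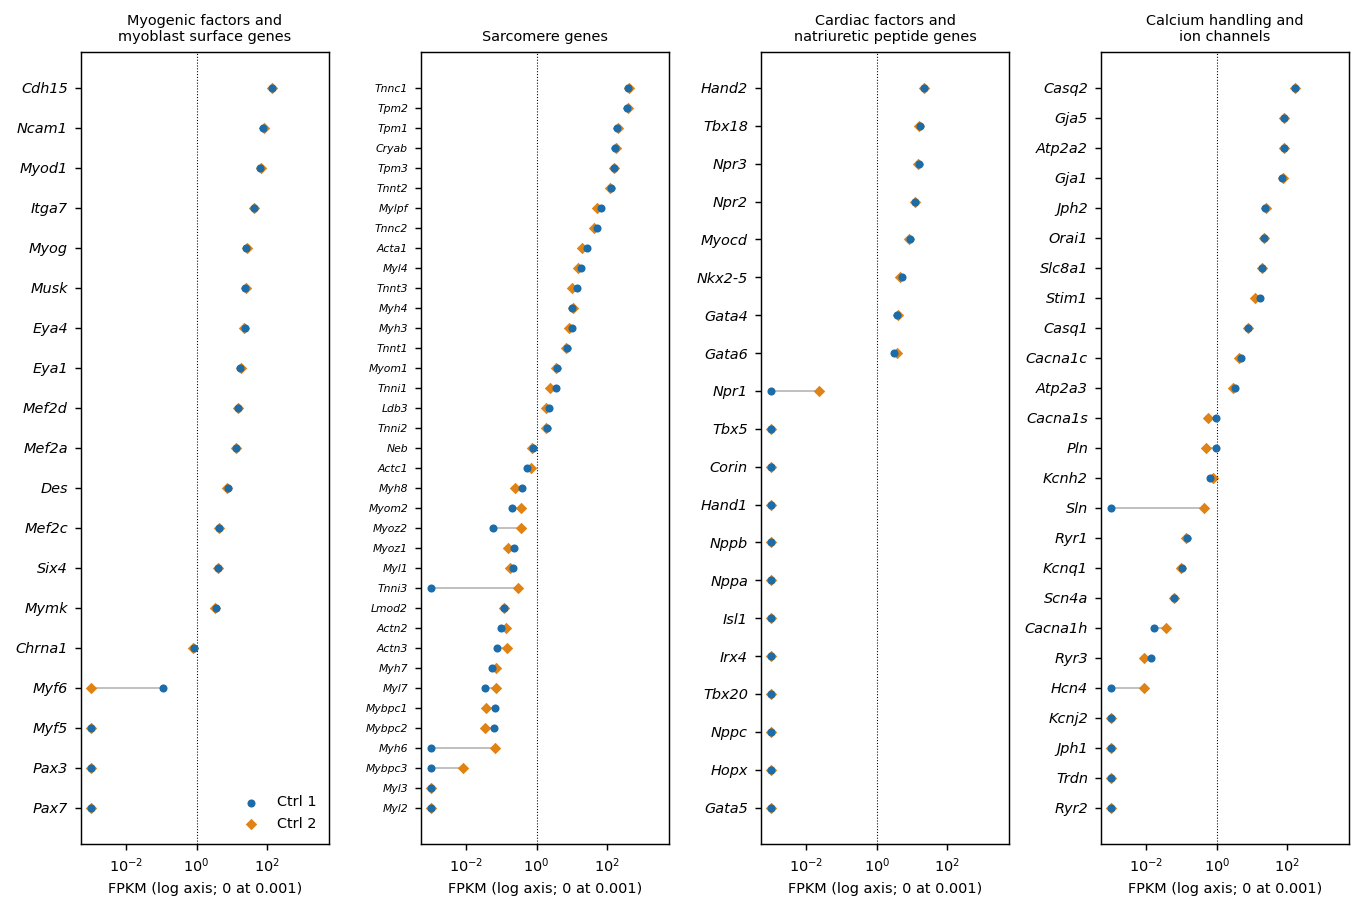
FPKM of the list members shown in Ctrl 1 (blue circles) and Ctrl 2 (orange diamonds) for 4 muscle gene lists, on log axes with 0 drawn at 0.001 and a dotted line at 1 FPKM. Each list spans from abundant genes such as Cdh15, Tnnc1, Hand2 and Casq2 down to members at 0, and both libraries place nearly every gene at the same level.

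Muscle forms of metabolic genes lay below their widespread counterparts for cytochrome oxidase subunits 6a and 8 but not in the nucleotide carrier. Of 18 rows for respiratory and creatine isoforms 9 were expressed (50%, near the 49.5% of coding rows). Slc25a4, the heart and muscle form of the mitochondrial nucleotide carrier, had 321 and 336 FPKM, above its widespread counterpart Slc25a5 at 187 and 196 FPKM. The cytochrome oxidase subunit gene Cox6a1, used in most tissues, had 684 and 659.7 FPKM and its heart and muscle counterpart Cox6a2 12.8 and 11.7 FPKM. Cox8a had 332 and 332 FPKM and the muscle form Cox8b 2.59 and 3.91 FPKM. The creatine kinase genes Ckm, Ckb, Ckmt1 and Ckmt2 were all below 1 FPKM, with Ckm at 0.211 and 0.509 FPKM. Mb (myoglobin) was at 0.562 and 0.350 FPKM and the fatty acid carrier gene Fabp3 at 0.702 and 0.197 FPKM. Ppargc1a, a coactivator of mitochondrial biogenesis, had 0 counts, and its relative Ppargc1b had 1.84 and 1.93 FPKM. The 13 protein genes of the mitochondrial genome together held 10.1% and 9.40% of all FPKM. They ranged from Mt-nd6 at 877 and 818 FPKM to Mt-co1.

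Of 19 mesenchymal and fibroblast genes 16 were expressed (84.2%, against 49.5% of coding rows), led after Vim by S100a4 at 375 and 356 FPKM and the surface glycoprotein gene Thy1 at 148 and 151 FPKM. The receptors for platelet-derived growth factor were divided sharply, with Pdgfrb at 52.9 and 52.3 FPKM and Pdgfra at 0 and 0.0338 FPKM. The epithelial-mesenchymal transition factors Snai1, Snai2, Zeb1 and Zeb2 lay between 12.04 and 14.3 FPKM in both libraries. Prrx1, a limb and craniofacial mesenchyme factor, had 62.8 and 52.2 FPKM, and Tcf21, a factor of cardiac fibroblasts and the epicardium, had 0 counts. All 9 smooth muscle markers were expressed (100%, against 49.5% of coding rows). Among them were Tagln at 1073 and 1106 FPKM, Cald1 at 337 and 347 FPKM and Cnn1 at 89.6 and 92.4 FPKM. The defining myosin of mature smooth muscle, Myh11, was near the threshold at 1.16 and 1.20 FPKM.

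The matrix list was abundant but had gaps. Of 37 extracellular matrix rows 28 were expressed (75.7%, against 49.5% of coding rows), 16 of them at a mean of 100 FPKM or more. The 37 rows together held 2.33% and 2.28% of all FPKM. Over all 42 genes with a collagen symbol, 15 were expressed (35.7%, below the 49.5% of coding rows). That family was chosen after its values were seen, and its median level was 0.149 FPKM. After Col1a1, Sparc and Thbs1 came Fn1 (fibronectin) at 1299.8 and 1331 FPKM and the proteoglycan gene Bgn at 901 and 886 FPKM. A row that the table describes as collagen type I alpha 2, under a provisional name, had 1585 and 1546 FPKM. The periostin gene Postn had 440.4 and 473 FPKM, Col5a2 389.9 and 398 FPKM and the basement membrane chain Col4a1 193 and 193 FPKM. Against this, the small proteoglycan genes Dcn, Lum and Fmod were at 0.0720 and 0 FPKM, at 0.292 and 0.285 FPKM and at 0.232 and 0.239 FPKM. Col6a1 and Col6a2, chains of type VI collagen, were at 0.0517 and 0 FPKM and at 0 and 0.0392 FPKM, and Eln (elastin) at 0.129 and 0.180 FPKM. The gelatinase gene Mmp2 had 2.46 and 2.70 FPKM and Mmp9 0.0203 and 0 FPKM, while the membrane-bound Mmp14 had 142 and 143 FPKM and the inhibitor genes Timp2 and Timp1 had 344 and 347 FPKM and 139 and 143 FPKM.

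Markers of other cell types were mostly near 0, and each of these lists had a smaller share expressed than the 35.7% of all rows. In bulk RNA, fewer cells of a type and less RNA per cell cannot be told apart. Of 11 endothelial markers 2 were expressed, Egfl7 at 12.8 and 10.4 FPKM and Flt1 at 5.83 and 5.78 FPKM, while the defining genes Cdh5, Tie1, Kdr, Emcn and Cldn5 had 0 counts. The 11 markers summed to 18.9 and 16.6 FPKM. Of 14 macrophage and blood cell markers 2 were expressed, Cd14 at 8.97 and 9.19 FPKM and Cd68 at 1.31 and 1.13 FPKM, while Ptprc (the pan-leukocyte CD45 gene), Adgre1 and Aif1 had 0 counts and the sum was 11.1 FPKM in both libraries. Of 12 epithelial markers only Krt8 passed, at 26.1 and 25.7 FPKM, and its usual partner Krt18 was at 0 and 0.0650 FPKM. Cdh1 and Epcam had 0 counts. Of 13 neural markers Nes (nestin, also an intermediate filament of myoblasts) had 94.6 and 99.3 FPKM and Tubb3 3.34 and 3.34 FPKM, while Rbfox3, Snap25, Sox10, Olig2 and Mbp had 0 counts. None of 12 adipocyte and liver markers and none of 12 rows for pluripotency and germ line genes were expressed. In the first of these lists Alb, Fabp4 and Hnf4a had 0 counts, in the second Nanog and Sox2, and the highest mean of either list was 0.299 FPKM, for Apoa1.

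**Figure D3:**
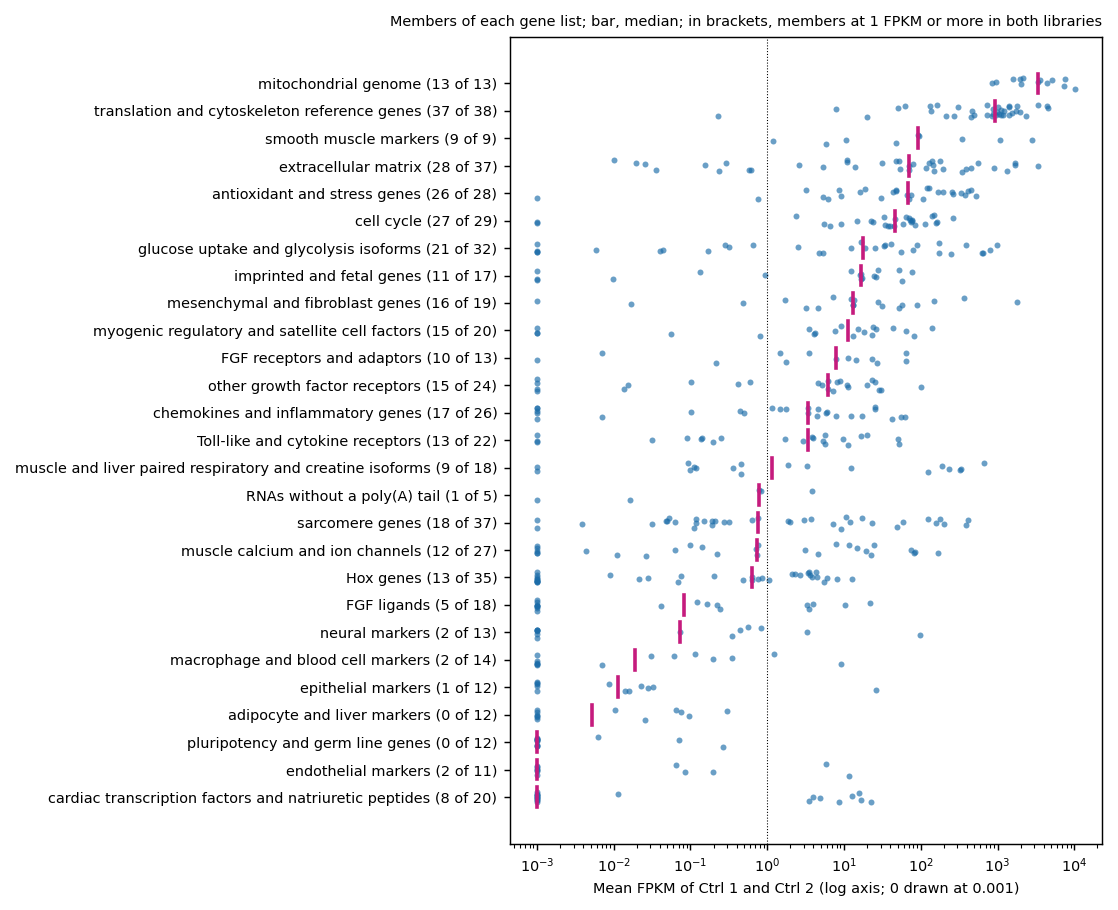
Mean FPKM of Ctrl 1 and Ctrl 2 for every member of each of the 27 gene lists, on a log axis with 0 drawn at 0.001, with the list's median as a pink bar and the dotted line at 1 FPKM. The mitochondrial genome, reference, smooth muscle and matrix lists sit far to the right, and the endothelial, pluripotency and cardiac factor lists have medians of 0.

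Signalling by fibroblast growth factors runs from secreted ligands through 4 receptor tyrosine kinases to shared adaptors. Of 13 rows for receptors and adaptors 10 were expressed (76.9%, against 49.5% of coding rows). The Fgfr2 row was the highest of the 4 kinase receptors, with 79.5% and 80.2% of their summed FPKM. Fgfr3 followed at 1.68 and 1.81 FPKM and Fgfr4 at 0.255 and 0.181 FPKM. Fgfr1, the gene targeted by the siRNA in the study, had 0 counts in Ctrl 1 and 4 in Ctrl 2 (0 and 0.0143 FPKM), below the floor and so not detectable at this depth. These shares rest on that row as deposited, and whether its reads were assigned elsewhere was not tested. The 4 receptors stood in the same order in both libraries. Fgfrl1, a decoy-like receptor without a kinase domain, had 3.76 and 3.33 FPKM, and the co-receptor gene Kl had 0 counts. The adaptors were all expressed, with Ptpn11 at 64.9 and 64.0 FPKM, Shc1 at 64.7 and 63.4 FPKM, Grb2 at 28.3 and 25.8 FPKM, Sos1 at 23.7 and 23.0 FPKM, the receptor substrate Frs2 at 14.2 and 14.4 FPKM and Gab1 at 11.2 and 11.4 FPKM. Frs3 was the lowest of them at 1.05 and 1.90 FPKM.

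Among the ligands 5 of 18 rows were expressed (27.8%, below the 35.7% of all rows) and 8 had 0 counts. Fgf7, a paracrine ligand of the Fgfr2 splice form found in epithelia, was highest at 22.5 and 20.7 FPKM. Fgf1, which binds all 4 receptors, had 10.1 and 10.2 FPKM. Fgf18 had 3.78 and 4.21 FPKM, the intracellular Fgf13 3.38 and 3.53 FPKM and Fgf22 3.03 and 3.61 FPKM. Fgf2, the ligand often added to myoblast medium, was at 0.408 and 0.0713 FPKM. Fgf3, Fgf4, Fgf5, Fgf8, Fgf16, Fgf17, Fgf20 and Fgf23 had 0 counts. The table has 1 level per gene, so splice forms of Fgfr2 were not told apart.

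**Figure D4:**
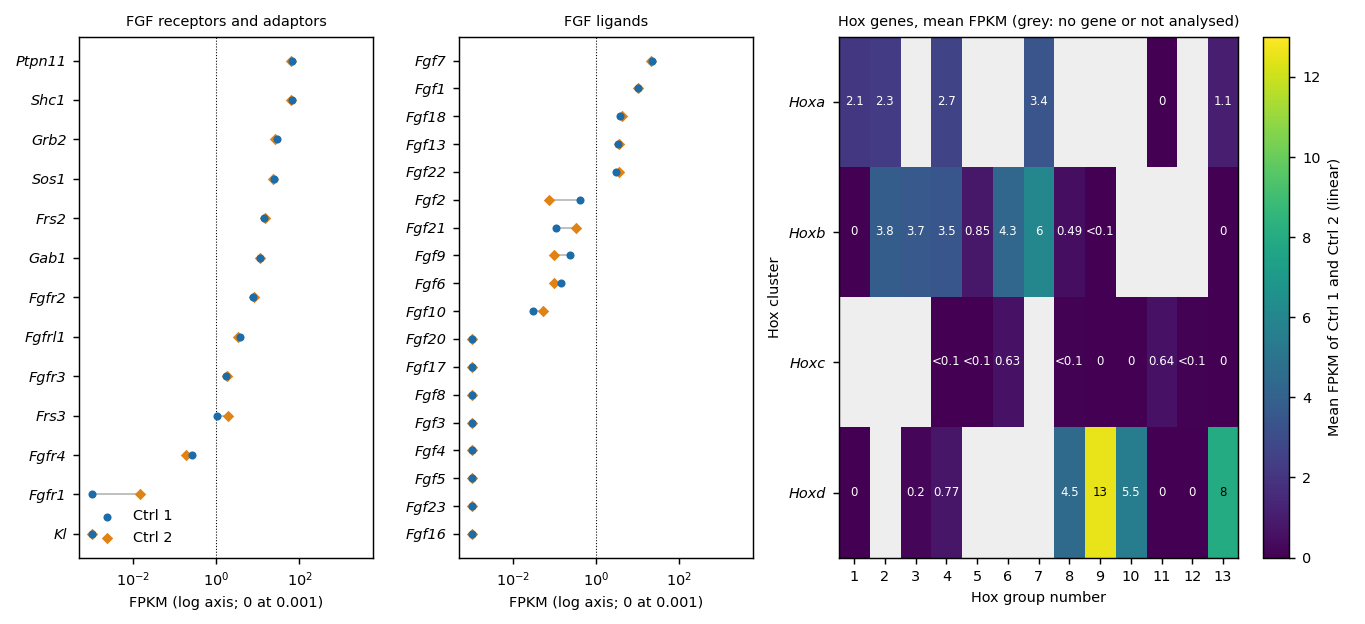
Left and middle, FPKM of FGF receptors, adaptors and ligands in Ctrl 1 (blue circles) and Ctrl 2 (orange diamonds) on log axes with 0 drawn at 0.001; right, mean FPKM of the Hox genes by cluster and group number on a linear colour scale. Adaptors lie above all receptors except for Frs3, Fgfr1 sits at the left edge, and the Hoxc row stays dark while Hoxd9 is brightest at 12.6 FPKM.

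Of 24 rows for other growth factors and their receptors, 15 were expressed (62.5%, against 49.5% of coding rows). Axl, a receptor for Gas6, led at 100.4 and 98.3 FPKM, followed by the ephrin receptor gene Epha2 at 29.3 and 31.5 FPKM. The insulin-like growth factor receptors Igf2r and Igf1r had 25.7 and 24.4 FPKM and 8.87 and 8.62 FPKM, and the insulin receptor gene Insr 7.26 and 6.93 FPKM. Receptors for the TGF-beta family were represented by Tgfbr2 at 23.3 and 22.9 FPKM, Tgfbr1 at 5.26 and 5.03 FPKM and Bmpr1a at 19.02 and 20.3 FPKM. Met, the receptor for hepatocyte growth factor and a mark of myogenic progenitors, had 8.13 and 7.99 FPKM. Egfr was at 0.213 and 0.622 FPKM and Erbb2 at 6.62 and 5.75 FPKM. Kit, Ret, Ghr and Ntrk2 had 0 counts.

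Cytokine receptor genes were mostly expressed and Toll-like receptor genes mostly not. Of 9 Toll-like receptor rows only Tlr4, the receptor for lipopolysaccharide, was expressed, at 3.48 and 4.30 FPKM, and Tlr7, Tlr8 and Tlr9 had 0 counts. Of the 22 rows for Toll-like and cytokine receptors 13 were expressed (59.1%, against 49.5% of coding rows). Every cytokine receptor row was among them except Tnfrsf1b at 0.268 and 0.123 FPKM. The cytokine receptor chains Tnfrsf1a and Il6st were the highest of the receptor list at 52.6 and 52.0 FPKM and 52.0 and 49.7 FPKM. The interferon receptor genes Ifngr1, Ifnar1, Ifnar2 and Ifngr2 were expressed, from 19.2 and 20.8 FPKM for the first to 10.4 and 9.18 FPKM for the last. Of 26 chemokine and inflammatory genes 17 were expressed (65.4%, against 49.5% of coding rows). They were led by Cxcl12, which attracts progenitor cells, at 61.3 and 61.9 FPKM, and by the macrophage growth factor gene Csf1 at 53.1 and 56.1 FPKM. Il6 had 3.39 and 3.30 FPKM and Ccl2 1.22 and 1.11 FPKM. Il1a, Il1b, Nos2, Ccl20 and Cxcl2 had 0 counts, and Tnf was at 0 and 0.0141 FPKM.

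Hox genes record the position of cells along the body axis, with low numbers anterior and high numbers posterior. Of 35 rows 13 were expressed, spread over 3 of the 4 clusters. That share was 37.1%, near the 35.7% of all rows and below the 49.5% of coding rows. The Hoxa cluster had 4 of 7 rows expressed, Hoxb 5 of 10, Hoxc 0 of 9 and Hoxd 4 of 9. Summed levels were 32.0 and 31.0 FPKM for Hoxd, 23.7 and 21.4 for Hoxb, 11.001 and 12.2 for Hoxa, and 1.14 and 1.76 for Hoxc. Hoxa3, Hoxa5, Hoxa6, Hoxa9 and Hoxa10 had no matching row and were not analysed here, and 2 of the 7 Hoxa rows were both named Hoxa11, so the Hoxa sum is that of an incomplete cluster and is not ranked. The highest members in the table were Hoxd9 at 12.7 and 12.4 FPKM and Hoxd13 at 8.16 and 7.85 FPKM, the latter a gene of the distal limb and hindgut. Hoxd10 had 6.13 and 4.84 FPKM and Hoxd8 4.07 and 4.88 FPKM, whereas Hoxd11 and Hoxd12 between Hoxd10 and Hoxd13 had 0 counts. In the Hoxb cluster the peak was Hoxb7 at 6.11 and 5.89 FPKM. Hoxc11, the highest of its cluster by mean, had 0.641 and 0.633 FPKM.

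Several genes of fetal tissue were active, with 11 of 17 imprinted and fetal rows expressed (64.7%, against 49.5% of coding rows). Igf2, the fetal growth factor, had 54.5 and 50.2 FPKM, and the 3 genes for proteins that bind its mRNA lay together, Igf2bp2 at 19.1 and 14.6 FPKM, Igf2bp3 at 17.1 and 16.1 FPKM and Igf2bp1 at 15.8 and 16.9 FPKM, with no order that held in both libraries. The chromatin proteins Hmga1 and Hmga2 had 74.3 and 80.6 FPKM and 24.7 and 25.04 FPKM. The imprinted genes Grb10, Peg3, Plagl1 and Mest had 57.7 and 57.0 FPKM, 27.8 and 27.9 FPKM, 17.5 and 17.2 FPKM and 12.4 and 12.5 FPKM. Dlk1 and Cdkn1c, also imprinted, and Afp had 0 counts.

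The cells carried the transcripts of dividing cells. Of 29 cell cycle rows 27 were expressed (93.1%, against 49.5% of coding rows) and 2 had 0 counts, Cdkn1c and the meiotic cyclin gene Ccna1. Cdk4 was highest at 260.1 and 267 FPKM. The D cyclins that activate it stood in the order Ccnd3, Ccnd1 and Ccnd2 in both libraries, at 159 and 162 FPKM, 148 and 150.3 FPKM and 86.7 and 83.2 FPKM. The replication clamp gene Pcna had 153 and 163 FPKM, the mitotic kinase gene Cdk1 116 and 114 FPKM and the proliferation marker gene Mki67 63.8 and 63.7 FPKM. Inhibitors were present at the same time, Cdkn1a (p21) at 139 and 142 FPKM, Cdkn1b (p27) at 45.1 and 44.3 FPKM and Cdkn2a at 35.1 and 33.1 FPKM. Rb1, the retinoblastoma protein gene that restrains entry into S phase, had 5.55 and 5.46 FPKM.

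Each isoform family of glycolysis had the same highest member in both libraries. Of 32 rows for glucose uptake and glycolysis 21 were expressed (65.6%, against 49.5% of coding rows). Aldoa, the aldolase of muscle and most other tissues, had 980.1 and 991 FPKM and made up 99.94% and 99.96% of the aldolase FPKM, Eno1 had 788 and 791 FPKM, Ldha, the muscle-type lactate dehydrogenase subunit, 642 and 642 FPKM against 173 and 169 FPKM for the heart-type Ldhb, Pkm 612 and 654 FPKM and Pgam1 383 and 382 FPKM. A row that the table describes as glyceraldehyde-3-phosphate dehydrogenase, without the usual symbol, had 1791 and 1750.0 FPKM. The muscle-type Eno3 and Pgam2 were lower than Eno1 and Pgam1, at 39.7 and 41.9 FPKM and at 5.39 and 5.13 FPKM. Among phosphofructokinases the muscle gene Pfkm led at 78.1 and 79.5 FPKM, and Pfkl and Pfkp were not separated. Hk1 had 53.5 and 56.2 FPKM and the insulin-regulated Hk2 18.3 and 19.4 FPKM. Glucose transporters were modest. Slc2a3 had 14.3 and 10.4 FPKM, the insulin-responsive Slc2a4 4.81 and 4.62 FPKM and the basal transporter gene Slc2a1 2.39 and 2.57 FPKM. The liver forms Slc2a2 and Pklr had 0 counts.

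Defences against oxidants were expressed almost throughout. Of 28 antioxidant and stress genes 26 passed (92.9%, against 49.5% of coding rows). The small heat shock protein gene Hspb1 had 507 and 543 FPKM, the cytosolic Sod1 449.8 and 451 FPKM, Prdx2 413 and 423 FPKM and Prdx1 381 and 378 FPKM. The mitochondrial Sod2 had 18.4 and 19.2 FPKM and the secreted Sod3 4.37 and 6.25 FPKM, an order that held in both libraries. Nqo1 and Hmox1, targets of the factor encoded by Nfe2l2, had 121 and 118 FPKM and 67.6 and 71.3 FPKM. The oxidase genes Nox4 and Cybb stood at 8.33 and 8.82 FPKM and at 0.

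Of 38 reference genes for translation and the cytoskeleton 37 were expressed (97.4%, against 49.5% of coding rows). The exception was Eef1a2, the muscle and nerve form of the elongation factor, at 0.231 and 0.223 FPKM. Families chosen from gene symbols after the values were seen marked the ends of the range. Of 275 genes for ribosomal proteins, proteasome subunits, tRNA synthetases, RNA polymerase II, initiation factor 3, chaperonin, splicing factors and the respiratory chain, 263 were expressed (95.6%, against 49.5% of coding rows) at a median of 107 FPKM. Among the 12 that were not expressed were the muscle and testis ribosomal protein copies Rpl3l and Rpl10l, at 0, the immunoproteasome gene Psmb8 at 0.724 and 1.14 FPKM, and the thymus proteasome gene Psmb11 at 0.0740 and 0.107 FPKM. At the other end, 3 of 1101 olfactory receptor genes were expressed (0.272%, against 49.5% of coding rows) and 1059 had 0 counts. None of 150 vomeronasal receptor genes, 35 bitter taste receptor genes and 15 GABA-A receptor genes was expressed. Other families lay between. Of 362 solute carrier genes 174 were expressed, led by the mitochondrial nucleotide carrier gene Slc25a4 at 321 and 336 FPKM, of 260 zinc finger protein genes 196, and of 92 potassium channel genes 12. Among 22 integrin genes 12 were expressed (54.5%, near the 49.5% of coding rows). The common beta chain Itgb1 had 469 and 490.2 FPKM and Itga5, the fibronectin receptor chain, 61.0 and 61.2 FPKM.

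Rows for non-coding RNAs were seldom expressed. Of 3090 rows for long intergenic RNAs 107 were (3.46%), and of 1563 microRNA rows 76 (4.86%), against 35.7% of all rows. Of 5 rows for RNAs without a poly(A) tail only Rn7sl1, a component of the particle that brings ribosomes to the endoplasmic reticulum, passed, at 4.40 and 3.19 FPKM. The labels speak of mRNA and name no small RNA protocol, so a count on a hairpin row is not a level of mature microRNA. Highest of the rows named for a microRNA was Mir675, whose hairpin lies within the long non-coding RNA H19 in mammals. It had 5311 and 6494 counts on a row of 84 bases, or 1127 and 994 FPKM. Reads of a longer host transcript fall on such a row too. Its mature products are shown from RefSeq, build GRCr8, with the seed (bases 2 to 8) in capitals, because they have different seeds. They lie at chr1:207161800-207161821 and chr1:207161766-207161786 on the minus strand.
rno-miR-675-5p: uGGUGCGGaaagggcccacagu
rno-miR-675-3p: uGUAUGCCcuaaccgcucagu
The hairpin rows of the muscle microRNAs Mir206, Mir1b, Mir133a-2, Mir208b and Mir499a had 0 counts in both libraries, and Mir133b had 2 and 7 counts.

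Windows of genes at 0 counts held fewer CG dinucleotides than those of expressed genes. RefSeq windows were found for 14632 of 17875 coding genes that matched by symbol (81.9%). Genes above 0 but under 1 FPKM in at least 1 library are in no class below, but count among all windows. The observed over expected ratio of CG dinucleotides had a median of 0.260 in the 3960 genes at 0 counts, 0.758 in the 3365 genes from 1 to 10 FPKM, 0.818 in the 4353 genes from 10 to 100 FPKM and 0.843 in the 562 genes at 100 FPKM or more, against 0.658 over all windows. A ratio of at least 0.6 was found in 19.2% of windows of genes at 0 counts and in 72.0%, 82.8% and 82.7% of the windows in the rising classes. In the windows printed above the ratio was 1.09 for Fgfr2, 0.374 for Myog, 0.355 for Nppb and 0.119 for Myf5, so Myog was expressed with a window poor in CG.

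TATAAA, on either strand, was present in 22.2% of windows of genes at 0 counts, 6.33% and 5.51% in the middle classes and 10.7% at 100 FPKM or more, against 11.3% of all windows. CANNTG was present in 76.6%, 62.1%, 59.6% and 58.4% of windows from the lowest to the highest class, against 66.9% of all. These shares describe letters, and base composition differs between the classes. At 100 FPKM or more, 97 genes had a ratio under 0.6, and 20 of these windows (20.6%) held TATAAA. The 97 genes included the mesenchymal and matrix genes Acta2 (ratio 0.170), Sparc (0.108), Serpinh1 (0.411), Vim (0.507) and Postn (0.150). Of these named genes, the windows of Vim and Postn held TATAAA and those of Acta2, Sparc and Serpinh1 did not. Genes of other kinds, such as Aldoa (0.183) and Rpl24 (0.483), were among the 97 too. By list, the median ratio was 0.231 over 32 sarcomere windows, 0.379 over 13 myogenic factor windows, 0.818 over 15 Hox windows and 0.873 over 21 cell cycle windows.

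**Figure D5:**
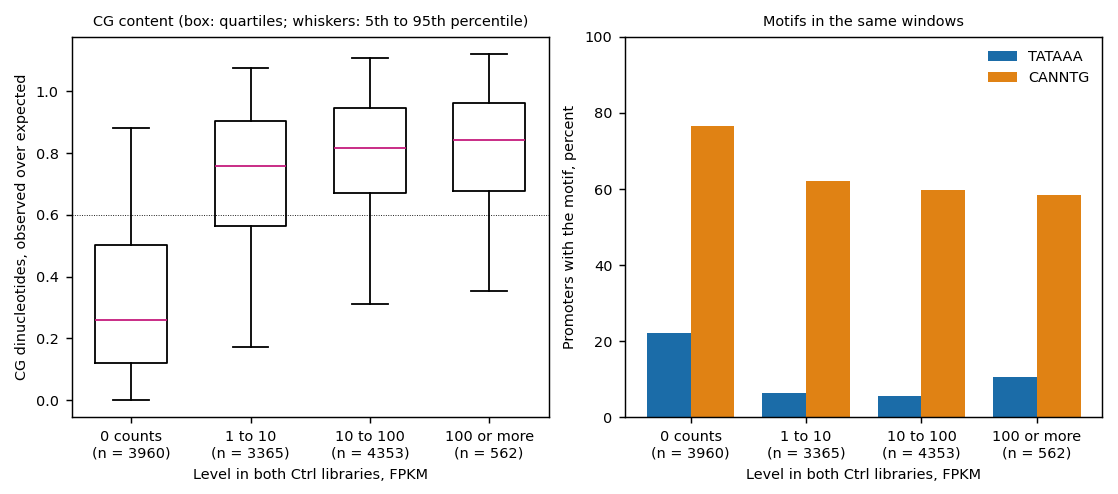
Left, CG ratio of promoter windows in 4 classes of level (box, quartiles; whiskers, 5th to 95th percentile; pink line, median; dotted line at 0.6); right, percent of the same windows that hold TATAAA or CANNTG. Genes above 0 and under 1 FPKM are not drawn. The box of genes at 0 counts lies around 0.260, below the boxes of the expressed classes. Among the 4 classes drawn, TATAAA is most frequent at 0 counts and second most frequent at 100 FPKM or more.

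Of the 39 rows that differed at least 10-fold between the 2 untreated libraries, 13 were higher in Ctrl 1 and 26 in Ctrl 2, and 27 had 0 counts in 1 library. Clone or locus names were borne by 31, gene symbols by 8. Some were genes with a copy. Wbp11, a splicing factor gene, had 0 and 25.9 FPKM, and the row named as its copy, Wbp11l1 on the same chromosome had 23.7 and 0 FPKM, while their summed counts were 61.0 and 70.6 CPM. Rsl1d1l1, named as a copy of Rsl1d1, had 0 and 2734 counts, and Rsl1d1 itself 566 and 424. Nhp2, a ribonucleoprotein gene, had 1481 and 0 counts. How reads were divided among copies was not tested, so single rows of such genes are uncertain. None of the 4 marker genes and none of the 559 rows in the gene lists was among the 39. Over all 9065 rows that reached 5 FPKM in the higher library, only 0.43% were. Most of the 39 bore clone or locus names, while the lists were made of gene symbols. The absence therefore says little about how reliable the listed genes are.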

How the data were processed

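RNA from H9C2 cells, an established rat line, was sequenced after TRIzol extraction, per the labels' protocols. The submitters' processing notes name fastp, HISAT2 and StringTie, without versions, and the human build GRCh38, while the gene identifiers are rat Ensembl ones. The deposited counts are whole numbers per gene, made by the authors and not scaled between libraries, per the file headers and the values. The deposited FPKM values were scaled by the authors to the length of the gene and the size of the library. Rows with a count of 0 carry 0.0001 in the deposited FPKM columns and were set back to 0. How the authors shared reads between near-identical genes, and whether counting used strand, is not given in the sources used here. Genes that overlap on opposite strands are therefore not told apart.

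Only the 2 untreated libraries were used, at 54149827 and 75021470 counts. Rows at 1 FPKM or more in both libraries were called expressed. Values after ± are standard deviations of 2 libraries. Small counts peaked at 4, 8 and 12, so 4 counts per fragment were assumed for the floor of 3 fragments. Percentages of summed FPKM were taken within a library. Ratios between the libraries used FPKM with at least the floor of 12 counts in the lower library, and rows needed 5 FPKM in the higher.

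The 27 gene lists held 592 entries, which matched 559 distinct rows of the table. List members without a matching symbol, such as Gapdh, Ttn, Col1a2, H19 and Hoxa9, were not analysed here. Some list members are counted but not reported here by name. Members, lists and markers were chosen with earlier results of these data known. The families taken from symbols, the microRNAs and the printed promoters were chosen after their values were seen. Named genes were the 30 highest rows with a unique symbol that is not a clone name, the 5 highest members of each list, low members by name or count, every member of isoform and receptor families, the 4 markers and the 10 rows that differed most between the libraries, of which those with symbols are printed. Other list members printed with a role were picked for that role. 

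Promoter windows came from RefSeq (GRCr8), with the first listed start of a gene where there were several (3251 symbols). Coding genes with a level above 0 and under 1 FPKM were left out of the classes, because 77.8% of them had a window, and the check over that class is void. Tables were made with Python 3.11.15, pandas 2.3.3, numpy 2.4.6 and matplotlib 3.10.9. The call of expressed rows, the share of the highest rows and the promoter letter counts were tested on simulated data. The other steps were not. Alternatives were other FPKM thresholds, TPM, CPM, unique symbols, coding rows, and each library alone.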

Additional observations from a re-analysis of the deposited data

How the results depend on the processing

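Under the alternatives 231 values stayed within the limit set for them and 14 did not. The limit was 1.5 times for counts of rows, the SD between the libraries for the share held by the highest rows, and the 95% Wilson interval for the share of windows. Expressed rows ranged from 10650 at 2 FPKM to 12445 at 0.5 FPKM, and were 11918 without Ctrl replicate 1 and 11864 without Ctrl replicate 2. Rows at 0 numbered 18242 when up to 12 counts were allowed. The 100 highest rows held 20.71% of counts in place of 32.74% of FPKM, and 27.51% of FPKM without the mitochondrial genome. The share thus depends on the measure and on those genes. Of the short lists, expressed macrophage and blood cell markers fell from 2 to 1 at 2 FPKM. Neural markers numbered 4 at 0.5 FPKM, 4 at 1 TPM and 6 at 1 CPM in place of 2. RNAs without a poly(A) tail, 1 of 5 rows, numbered 3 at 0.5 FPKM, 2 at 1 FPKM in either library, 3 at 1 TPM, 0 at 1 CPM, and 1 to 2 with a library left out. Rows at least 10-fold apart numbered 21 when 10 FPKM was required, 50 at 4-fold and 39 with no floor, the last an alternative chosen after seeing the data, as was the restriction to coding rows. The share of expressed windows with a CG ratio of at least 0.6 was 76.98% and 79.84% with classes starting at 0.5 and 2 FPKM, against 78.38%.

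On the TPM scale every level is 1.90 times its FPKM by construction, so 427 of 462 printed or listed levels moved by more than their SD between the libraries. The order within isoform families held in all 31 under TPM, in 26 without Ctrl replicate 1 and in 30 without Ctrl replicate 2. The highest member changed in the Igf2bp family, where Igf2bp1 led without Ctrl replicate 1. No paired analysis was possible because the results come from no test and 1 group is described. With 2 libraries the spread is poorly known, genes near 1 FPKM can fall on either side of the threshold, and a level at 0 is bounded only by the floor.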

Other observations

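Coding genes of the sex chromosomes differed in detection. None of the 9 coding rows on chromosome Y was expressed and all of their FPKM summed to 0, while 355 of 824 coding rows on chromosome X (43.1%) were expressed, against 49.5% of all coding rows. Chromosome 12 had 390 of 628 (62.1%) and chromosome 15 had 299 of 737 (40.6%).

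Some very abundant rows carry locus names. A row described as thymosin, beta 10-like had 3682 and 3651 FPKM, while the row named Tmsb10 had 184 and 144 FPKM. A row described as ferritin light chain 1-like had 3303 and 3446 FPKM, while Ftl1 had 189.6 and 81.9 FPKM. A second row described as glyceraldehyde-3-phosphate dehydrogenase had 345 and 736 FPKM. Which copy these reads came from was not tested.

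Among the olfactory receptor genes, the 3 expressed rows were Olr812 at 3.29 and 4.16 FPKM, Olr1684 at 2.04 and 1.56 FPKM and Olr813 at 1.67 and 1.36 FPKM. The defensin gene Defb37 had 2.52 and 3.46 FPKM, and 37 of the 39 beta-defensin rows had 0 counts.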
